A study of Mus musculus with 7 samples.

Results

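A set of 10 genes that mark oligodendrocyte progenitor cells (OPCs) were followed across the oligodendrocyte lineage of adult mouse cortex: Pdgfra, Cspg4, Cspg5, Ptprz1, Vcan, Lhfpl3, Pcdh15, C1ql1, Tnr and Bcan. They were taken from the table by symbol, with no threshold on their values, and all 10 of 10 were found among the 27998 genes of the count table. The cells were oligodendrocyte lineage cells (OLCs) sorted from P90 mice (11 to 14 weeks) on a mixed C57BL/6-B6CBA background and sequenced on a droplet platform that counts RNA molecules by unique molecular identifiers (UMIs). All 3 groups carried Emx1-Cre, active in progenitors of the dorsal forebrain, and the Sox10-GFP-tdTom reporter, in which OLCs are green unless Cre has acted and red where it has. Control dOLCs were the tdTom+ cells (dorsal origin) and control vOLCs the GFP+ cells (ventral origin) of Emx1-Cre:Sox10-GFP-TdTom mice. Ectopic vOLCs were the GFP+ cells of mice that carried the Sox10-GFP-DTA transgene in addition, with which Cre also switches on diphtheria toxin fragment A in dorsal OLCs, so that ventral cells fill the cortex. Each group is 1 library, pooled from the 4 control or 2 ablated mice without a mark of the animal. Differences between groups are therefore differences between libraries, with no test, and every interval given is a 95% interval for counting error only.

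The products of these genes work mainly at the cell surface and in the matrix around it. OPCs are the dividing, migrating cells from which myelinating oligodendrocytes arise, and they are held in that state in part by platelet-derived growth factor acting on the receptor PDGFRα, encoded by Pdgfra. Of the 10 genes, 5 encode core proteins of chondroitin sulfate proteoglycans, namely Cspg4 (NG2), Cspg5 (neuroglycan C), Ptprz1 (a receptor phosphatase), Vcan (versican) and Bcan (brevican), and Tnr encodes tenascin-R, a matrix glycoprotein that binds versican and brevican. Pcdh15 encodes a protocadherin, Lhfpl3 a small protein with several membrane spans, and C1ql1 a secreted C1q-like ligand of the adhesion receptor encoded by Adgrb3. On GRCm38, Pdgfra (chr5:75152292-75198215) and Lhfpl3 (chr5:22746059-23275597) share chromosome 5, and Cspg4 and Cspg5 chromosome 9, while the longest annotated transcripts run from 1473 bases for C1ql1 to 12427 for Vcan.

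The deposited annotation placed 9291 kept cells in 11 clusters. OPCs (cycling cells apart) numbered 853 (control dOLCs), 121 (control vOLCs) and 330 (ectopic vOLCs). They held 2625452, 394731 and 1202197 UMIs, so the ventral control is the least precise. Median UMIs per OPC were 2795, 3454 and 3421.5. Of 39 barcode sequences that occurred in more than 1 library among kept cells, 11 included an OPC. The label was checked against markers. Sox10 was detected in 74.3% to 77.6% of OPCs and Olig2 in 91.7% to 97.0%. Pericytes also express Cspg4 and vascular leptomeningeal cells Pdgfra, and the summed UMIs of 8 genes of each in OPCs were 4, 0 and 1, and 12, 2 and 6. Kcnj8, Pdgfrb, Col1a1 and Dcn stood at 0 in every library. Lists of 10 astrocyte and 8 neuron genes were not near 0, at 1066 to 1148 and 1142 to 1312 CPM in OPCs. Of the astrocyte genes, Slc1a2 was detected in 64.4% to 71.9% of OPCs and Aldoc in 41.3% to 51.5%, whereas Gfap and Gja1 had at most 3 UMIs in a library. RNA of 15 mature oligodendrocyte genes made up 1.59%, 0.769% and 0.713% of OPC UMIs. Where 3 values follow each other below, they stand for control dOLCs, control vOLCs and ectopic vOLCs in this order.

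To show the regulatory sequence in front of the genes at the ends of the comparison of ectopic with control ventral OPCs, the lowest (Tnr and Pdgfra) and the only higher one (Lhfpl3), RefSeq promoters (250 bases before to 50 after the start, GRCm38.p6) are printed for Pdgfra (chr5:75152001-75152300, plus strand), Tnr (chr1:159523519-159523818, plus strand) and Lhfpl3 (chr5:22745804-22746103, plus strand). Capitals mark matches to 4 motifs searched on both strands.
Pdgfra: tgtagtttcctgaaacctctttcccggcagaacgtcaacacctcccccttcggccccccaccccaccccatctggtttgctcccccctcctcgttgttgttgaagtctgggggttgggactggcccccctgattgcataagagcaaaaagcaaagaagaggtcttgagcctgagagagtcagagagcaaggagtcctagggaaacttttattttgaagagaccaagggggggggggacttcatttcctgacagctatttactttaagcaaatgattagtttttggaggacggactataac
Tnr: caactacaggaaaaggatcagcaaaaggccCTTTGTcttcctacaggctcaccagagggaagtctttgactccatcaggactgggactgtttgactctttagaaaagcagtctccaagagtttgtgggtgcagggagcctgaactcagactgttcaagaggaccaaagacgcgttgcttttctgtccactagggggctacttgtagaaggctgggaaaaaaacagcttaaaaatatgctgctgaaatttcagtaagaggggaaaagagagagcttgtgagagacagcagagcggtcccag
Lhfpl3: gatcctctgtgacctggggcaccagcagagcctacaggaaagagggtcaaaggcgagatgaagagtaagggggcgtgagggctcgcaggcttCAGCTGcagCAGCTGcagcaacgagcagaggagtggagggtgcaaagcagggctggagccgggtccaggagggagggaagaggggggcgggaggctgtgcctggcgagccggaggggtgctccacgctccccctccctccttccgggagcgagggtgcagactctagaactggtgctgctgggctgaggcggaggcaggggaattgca
The search covered the SOX-type motifs ACAAAG and ACAATG and the E-box motifs CAGCTG and CATATG, none of which overlap each other, in the 8 of 10 members that had a promoter in the table. ACAAAG occurred in 1 of 8 member promoters, that of Tnr, where its reverse complement starts at position −220 from the start, against 18.7% of all 32851 promoters. CAGCTG occurred in 2 of 8, in Lhfpl3 at −158 and −149 and in Pcdh15 at 9, against 16.3%. ACAATG and CATATG (12.6% and 3.91% of all promoters) were in none of the 8. These matches describe letters in a window of 300 bases only.

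**Figure D1:**
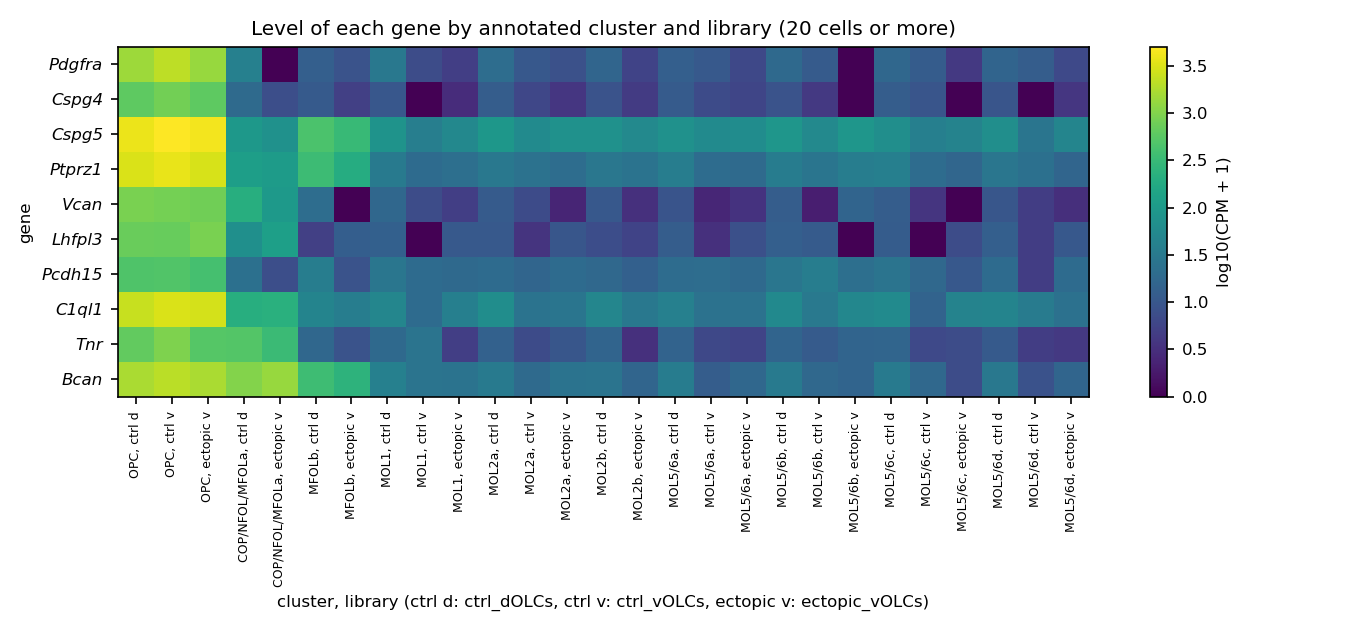
Heat map of the level of each gene (rows) in each annotated cluster and library with 20 or more cells (columns), as log10(CPM + 1), where CPM is UMIs per 1000000. All 10 rows are brightest in the 3 OPC columns, and Tnr and Bcan stay bright in COP/NFOL/MFOLa.

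All 10 genes were at their highest in OPCs or cycling OPCs in every library, which describes the clusters and is no test, since the clusters were made from the same cells. Levels are in UMIs per 1000000 UMIs of the cluster (CPM). They were not compared between genes, because UMIs come from the 3′ ends of transcripts and capture differs between genes. Pdgfra stood at 1450 (1404 to 1497), 2174 (2031 to 2324) and 1363 (1297 to 1430) CPM. Mature oligodendrocytes, over 7 clusters, held 16.9, 9.99 and 5.38 CPM of it, or 1.17%, 0.460% and 0.395% of the OPC level. The receptor was nearly absent from mature cells of every library, and the interval of the ventral control in OPCs did not overlap those of the other 2 libraries.

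Among the proteoglycans, Cspg4 stood at 597, 811 and 613 CPM in OPCs. Cspg5 stood at 3907, 5019 and 4348, and Ptprz1 at 3048, 3737 and 2960. Bcan stood at 1714, 2077 and 1687. All 4 had their highest level in the ventral control, with an interval clear of the other 2 libraries. Vcan, at 901, 856 and 792, was the exception, and its ventral control interval (767 to 953) overlapped both others.

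Tnr stood at 656 (625 to 687), 975 (880 to 1078) and 529 (489 to 572) CPM, the widest spread of the 10. C1ql1 stood at 2474, 3103 and 2852. Tnr and C1ql1 shared their highest library, the ventral control, but not their lowest, and the C1ql1 intervals of the ventral libraries overlapped. Pcdh15, at 474, 499 and 400, was lowest in ectopic vOLCs. Lhfpl3 was the only member highest in ectopic vOLCs, at 895 CPM (842 to 950) against 712 (680 to 745) and 692 (612 to 779).

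Detection per cell was compared at equal depth. With each cell thinned to 1000 UMIs, a UMI of Cspg5 was found in 95.9%, 99.2% and 98.2% of OPCs and in 7.77%, 5.51% and 6.08% of mature cells. Pdgfra was found in 74.0%, 89.3% and 75.5% of OPCs and in 1.85%, 1.28% and 0.278% of mature cells. Pcdh15, the least often detected, was found in 37.0%, 41.3% and 32.1% of OPCs and in 2.46%, 2.44% and 1.39% of mature cells. Without thinning, Pdgfra reached 96.5%, 96.7% and 98.5% of OPCs and Pcdh15 72.5%, 76.0% and 73.9%. The share of OPCs with a UMI thus depended on depth, and most for the members of low level.

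The median OPC had 7 of the 10 members detected after thinning and 9 without it, in each library. At least 5 members were found in 93.8% (92.0 to 95.3), 99.2% (95.5 or more) and 93.6% (90.4 to 96.0) of thinned OPCs. Mature cells had none of the 10 in 75.4%, 82.3% and 85.2%. No OPC had fewer than 5 members detected without thinning, so the cluster held no cells that lacked the set as a whole.

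**Figure D2:**
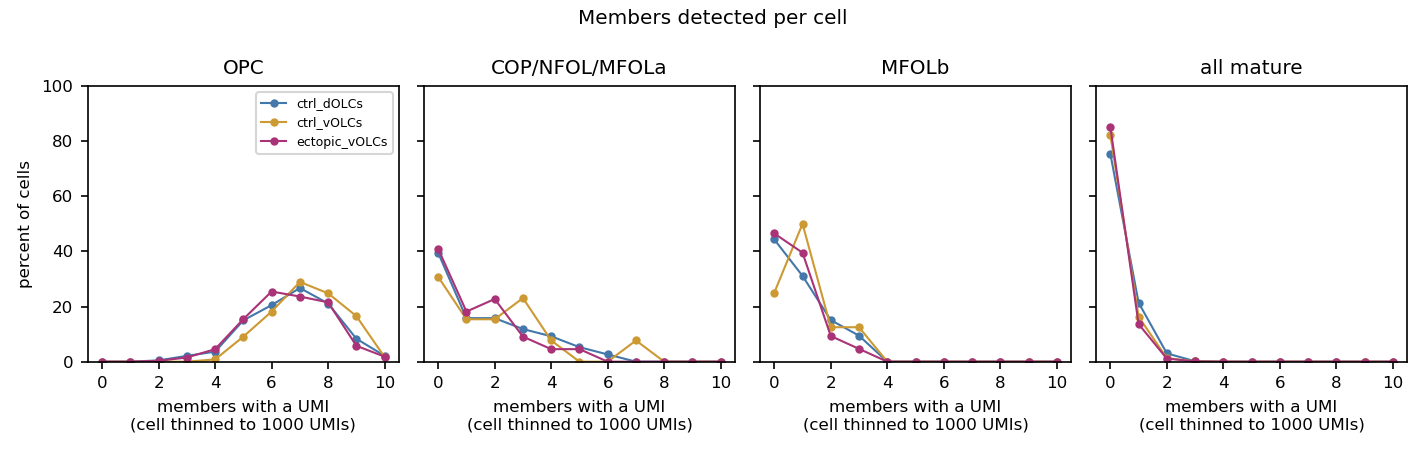
Percent of cells (vertical axis) by the number of the 10 members with a UMI after thinning to 1000 UMIs (horizontal axis), for 4 stages and 3 libraries. OPCs center on 7 members, and mature cells at 0 (75.4% to 85.2%).

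Variation among OPCs of 1 library was described by the variance of thinned UMIs over their mean, which is 1 for counting alone. Over the 10 genes this ratio ran from 0.996 to 1.42, from 0.890 to 1.32 and from 0.934 to 1.51. In control dOLCs it was highest for C1ql1 (1.42), Cspg5 (1.40) and Ptprz1 (1.33). Thinning moves the ratio toward 1, so values near 1 do not show that OPCs were alike in a gene. Genes of like mean had medians of 1.06 to 1.51, 1.07 to 1.58 and 1.04 to 1.44. The members stood above the median of their like genes in 4, 3 and 3 of 10 cases, and Vcan and C1ql1 did so in each library. Vcan was at 1.13, 1.10 and 1.47 where its like genes had medians of 1.11, 1.09 and 1.09, and C1ql1 was at 1.42, 1.31 and 1.51 where they had 1.32, 1.28 and 1.43.

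Cycling OPCs were few (17, 3 and 11 cells), and some members differed in them from other OPCs. Pdgfra was at 208% (179 to 240), 279% (204 to 373) and 112% (87.3 to 142) of the OPC level, and only the ectopic interval includes equality. C1ql1 was at 29.0% (21.2 to 38.7), 8.14% (0.984 to 29.5, on 2 UMIs) and 29.0% (20.6 to 39.8). Cycling cells therefore held less C1ql1 in all 3 libraries and more Pdgfra in both controls. Lhfpl3 was at 65.7% (44.2 to 94.2), 18.3% (0.461 to 102.6, on 1 UMI) and 47.4% (28.9 to 73.6), with an interval below equality in control dOLCs and ectopic vOLCs, and Cspg4 was at 154% (117 to 200), 93.5% and 97.0%. Vcan was at 88.3%, 133% and 45.6% (26.4 to 73.4 in the last), and Bcan at 69.2% (54.4 to 86.8), 85.1% and 94.4%. Cspg5 was at 93.4%, 123% and 84.9% (72.6 to 98.8 in the last), and Ptprz1 at 116% (101.4 to 132.6), 112% and 108%.

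**Figure D3:**
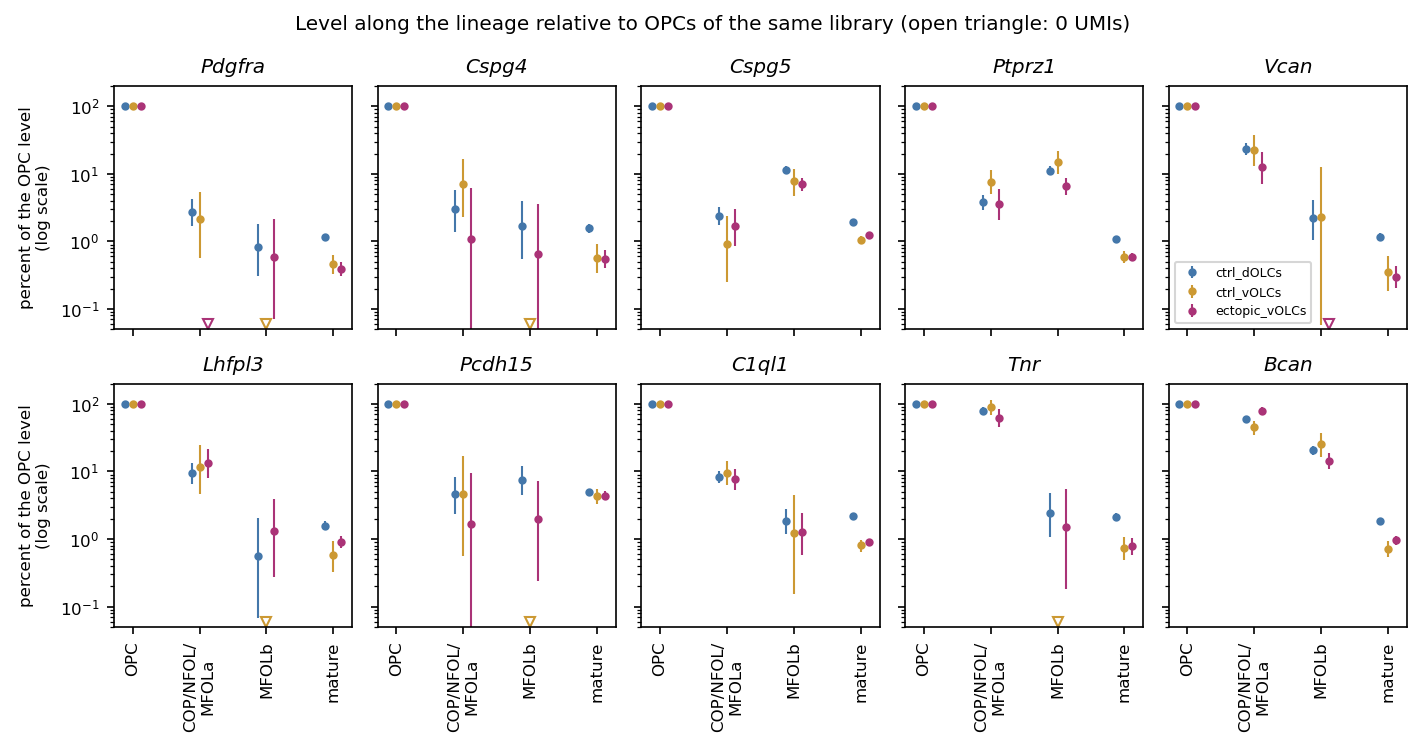
Level of each gene in 3 later stages as a percent of its level in OPCs of the same library (log scale, bars 95% counting intervals, open triangles at 0 UMIs). Tnr and Bcan stay between 44.7% and 89.4% in COP/NFOL/MFOLa, while Cspg5 and Ptprz1 are higher in MFOLb than in the earlier cluster.

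The genes were lost at different stages. The cluster COP/NFOL/MFOLa, of 76, 13 and 22 cells, joins committed precursors, newly formed and early myelin-forming oligodendrocytes. In it the 10 genes, each as a percent of its OPC level in the same library, fell into 3 sets. Tnr (79.0%, 89.4% and 62.0%) and Bcan (60.6%, 44.7% and 79.0%) had the highest shares, as means over a mixed cluster. Vcan (23.4%, 22.8% and 12.7%), Lhfpl3 (9.58%, 11.6% and 13.5%) and C1ql1 (8.35%, 9.61% and 7.74%) were intermediate. Pdgfra, Cspg4, Cspg5, Ptprz1 and Pcdh15 were at 7.68% or less in each library. Pdgfra had 20, 4 and 0 UMIs there, and 0 UMIs in 22 ectopic cells allow a level of up to 20.1 CPM. The genes of tenascin-R and its partners brevican and versican thus kept the highest shares in each library except for Vcan in ectopic vOLCs, where Lhfpl3 had 13.5% and Vcan 12.7%.

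That cluster was not uniform. Gpr17, a receptor gene switched on in committed precursors and off again before myelination, had a UMI in 65 of its 111 cells, and the split by Gpr17 was chosen after the levels were seen. With the libraries summed, Bcan was at 2032 CPM (1892 to 2178) in cells with a Gpr17 UMI and 28.8 (13.8 to 53.0) in cells without, against 1740 in OPCs. Tnr was at 979.7 CPM (884 to 1083) in cells with Gpr17, 8.64 (1.78 to 25.3) in cells without, and 649 in OPCs. In the remaining 46 cells both genes were near the level of mature cells (24.3 and 9.69 CPM). Cells with a Gpr17 UMI had the lower median depth, 5605 against 7117.5 UMIs.

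By library, Bcan was at 1854, 1984 and 2725 CPM in Gpr17 cells (46, 7 and 12 cells), against 1714, 2077 and 1687 in OPCs, and the intervals were apart in ectopic vOLCs only. Tnr was at 931, 1883 and 671 CPM, against 656, 975 and 529 in OPCs, with intervals apart in both controls but not in ectopic vOLCs. In cells without (30, 6 and 10), Bcan had 8, 2 and 0 UMIs and Tnr 2, 1 and 0. Bcan was found in 41 of 46, 7 of 7 and 11 of 12 of the cells with a Gpr17 UMI. Among cells without, it was found in 7 of 30, 2 of 6 and 0 of 10. Vcan (343 against 11.5 CPM), C1ql1 (389 against 31.7), Ptprz1 (240 against 17.3) and Lhfpl3 (144 against 8.64) were also higher with Gpr17, all below their OPC levels. So were Pdgfra, at 54.1 CPM (33.5 to 82.8) against 8.64 (1.78 to 25.3), and Cspg4, at 36.1 (19.7 to 60.6) against 2.88 (0.0729 to 16.1). In ectopic vOLCs Pdgfra had 0 UMIs in both parts. Cspg5, at 108 CPM (78.0 to 146) with Gpr17 and 57.6 (35.2 to 89.0) without, and Pcdh15, at 20.6 (8.90 to 40.6) and 17.3 (6.34 to 37.6), had intervals that overlapped.

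**Figure D4:**
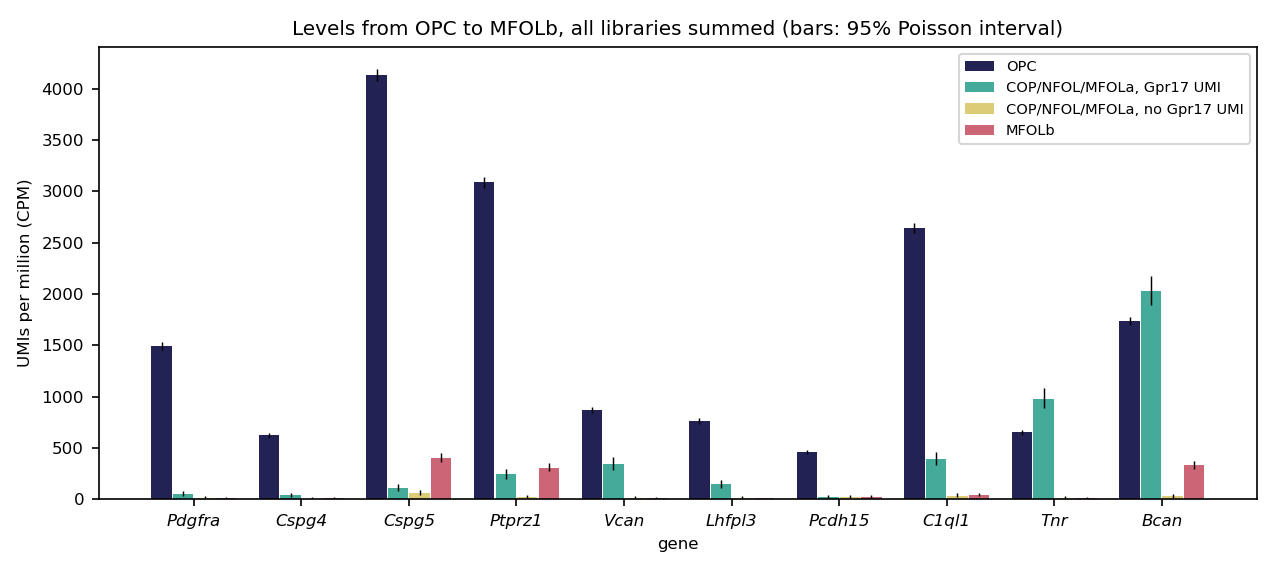
CPM of each gene with all libraries summed in OPCs, in COP/NFOL/MFOLa cells with (65) and without (46) a Gpr17 UMI, and in MFOLb (157 cells), bars 95% Poisson intervals. Bcan and Tnr stand at 2032 and 979.7 CPM in Gpr17 cells against 28.8 and 8.64 in cells without, and in MFOLb Cspg5, Ptprz1 and Bcan stand at 400, 308 and 329 CPM.

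The proteoglycan genes Cspg5, Ptprz1 and Bcan stood well above their mature levels in MFOLb, the myelin-forming cluster of 106, 8 and 43 cells. Cspg5 was at 11.5% (10.0 to 13.1), 7.71% (4.70 to 11.9) and 7.04% (5.55 to 8.82) of its OPC level, against 2.41%, 0.915% and 1.69% in COP/NFOL/MFOLa. Ptprz1 was at 11.1% (9.47 to 12.9), 15.02% (10.02 to 21.7) and 6.58% (4.86 to 8.72), against 3.82%, 7.68% and 3.62%. Bcan was at 20.6%, 25.1% and 14.4%. For Cspg5 and Ptprz1 the MFOLb value was the higher in all 3 libraries, and the intervals of the 2 clusters were apart in all 3 for Cspg5 and in control dOLCs for Ptprz1.

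Most other members stood lower. Pdgfra had 6, 0 and 2 UMIs in MFOLb, or 0.828% of the OPC level in control dOLCs and 0.584% in ectopic vOLCs. Tnr, so high one cluster earlier, had 8, 0 and 2 UMIs (2.44% and 1.503% in the same 2 libraries), and 0 UMIs in the 8 control vOLC cells allow up to 58.0 CPM. Within control dOLCs the share of the OPC level thus ran from 0.562% for Lhfpl3 to 20.6% for Bcan. Pcdh15 was at 7.60% there, on 18 UMIs, with 0 and 2 UMIs in the ventral libraries. Without thinning, a UMI of Cspg5 was found in 66.0%, 62.5% and 69.8% of MFOLb cells and of Bcan in 57.5%, 75.0% and 53.5%, against 26.2%, 24.2% and 26.1%, and 12.1%, 7.56% and 8.67%, of mature cells.

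In mature oligodendrocytes (4752, 780 and 2156 cells) Pcdh15 was set apart from the rest. It stood at 4.89% (4.38 to 5.46), 4.33% (3.35 to 5.57) and 4.39% (3.73 to 5.16) of its OPC level, while the other 9 members stood at 1.08% to 2.16%, 0.353% to 1.06% and 0.300% to 1.26%. Its interval lay above those of the other 9 in each library. Leaving out mature cells with a UMI of 3 or more members, it stood at 4.25%, 3.95% and 3.83%. Each of the other 9 had its highest percentage in control dOLCs, with an interval clear of both ventral libraries, while the 3 intervals of Pcdh15 overlapped.

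Among the mature clusters themselves the members varied by different amounts in control dOLCs, where counts were largest. Cspg5 ran from 65.3 CPM in MOL5/6d to 88.7 in MOL2a, and C1ql1 from 40.4 in MOL5/6a to 63.4 in MOL2a. Pdgfra ran from 12.0 in MOL5/6a to 28.9 in MOL1, and Vcan from 8.23 to 16.2 in the same clusters. The highest value in any mature cluster of 20 or more cells was that of Cspg5 in MOL2a (88.7 CPM), far below its 3907 CPM in OPCs.

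The study asked how ectopic ventral cells differ from the dorsal cells whose place they take. In OPCs, the log2 ratios of the 10 genes between ectopic vOLCs and control dOLCs ran from −0.31 to 0.33 with a median of −0.03, against 0.08 for all 6110 genes with enough counts (at least 50 UMIs over both libraries and a UMI in 10% of the cells of one). None of the 10 differed by more than 1.5-fold, a size that 11.1% of all genes passed. That share holds genes with as few as 50 UMIs, which pass a fold more easily through counting error. Pcdh15, the member with the fewest UMIs, had 481 and 1245. The shares of all genes past a fold given below hold such genes too. Pdgfra was at a log2 ratio of −0.09 (−0.17 to −0.01) and Cspg4 at 0.04 (−0.09 to 0.17).

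The interval excluded 0 for 7 members, as it did for 28.5% of all genes, a criterion that genes of high counts pass more easily. Lhfpl3 (0.33, 0.22 to 0.44), C1ql1 (0.21, 0.145 to 0.265) and Cspg5 (0.15, 0.11 to 0.20) were higher in ectopic vOLCs. Tnr (−0.31, −0.44 to −0.18), Pcdh15 (−0.25, −0.40 to −0.09), Vcan (−0.19, −0.30 to −0.08) and Pdgfra were lower. Across 5944 genes the log2 ratio fell with transcript length (Spearman's rho −0.35). Set against genes of like length, the median of the members was 0.02, Pdgfra was at 0.01, Ptprz1 at 0.07, Vcan at −0.02, C1ql1 at 0.04, Tnr at −0.14 and Lhfpl3 at 0.25. The part of length in these values was not tested.

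**Figure D5:**
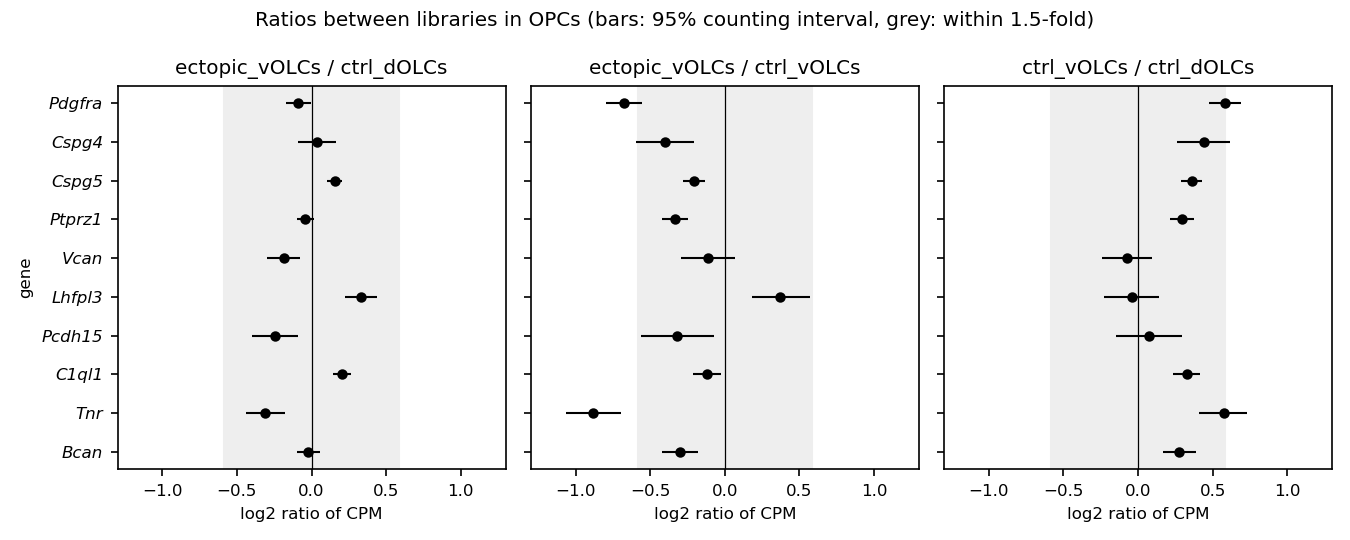
Log2 ratio of CPM in OPCs for the 3 pairs of libraries (horizontal axis), with 95% counting intervals and a grey band for differences within 1.5-fold. In the left panel all 10 genes lie within the band, and in the middle panel Pdgfra (−0.67) and Tnr (−0.88) lie outside it.

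Against control vOLCs, the cells of the same origin, ectopic OPCs were lower in 9 of the 10 genes, with a median log2 ratio of −0.31 against 0.04 for all 5721 genes. For 8 the interval lay below 0, as it did for 10.6% of all genes. Tnr (−0.88, −1.07 to −0.70) and Pdgfra (−0.67, −0.79 to −0.55) were lower by more than 1.5-fold, 2 of 10 genes where 9.77% of all genes were lower by that much, 18.0% higher and 27.8% either. Lhfpl3 alone was higher, at 0.37 (0.18 to 0.57). Here too the ratio fell with length (rho −0.39 over 5570 genes). Against genes of like length the median was −0.10, Tnr was at −0.58 and Pdgfra at −0.45. There 7 of the 10 were below 0 with none past 1.5-fold, where 10.2% of all genes were lower by that much. Cspg5 (0.06) and Vcan (0.19) changed sign there.

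The comparison of the 2 control populations shares the ventral control library with the one above and is not independent of it. Control ventral OPCs were above control dorsal OPCs in 8 of 10 genes, with a median of 0.31 against 0.03 for all 5863 genes. For 7 the interval lay above 0, as it did for 11.9% of all genes. Pdgfra (0.584, 0.48 to 0.69) and Tnr (0.573, 0.41 to 0.73) came just under a 1.5-fold difference (0.585 on the log2 scale), which none of the 10 passed and 22.9% of all genes did. Cspg4 was at 0.44 and Cspg5 at 0.36. Vcan (−0.07), Lhfpl3 (−0.04) and Pcdh15 (0.07, or −0.10 against genes of like length) had intervals that include 0. The 121 ventral OPCs also held less mature oligodendrocyte RNA than the dorsal ones (0.769% against 1.59%), and the part of this in the result was not tested. The median was between 0.21 and 0.31 over all settings tried. Among them were those genes taken out of the totals, and the 10% of OPCs richest in them left out. These settings leave other mature oligodendrocyte RNA in the remaining OPCs and do not test its part.

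The list of chondroitin sulfate chain synthesis had 10 of 22 genes with enough counts in OPCs. Against control dOLCs, ectopic OPCs had 0 of the 10 past 1.5-fold (11.1% of all genes). The median log2 ratio was 0.07 (−0.06 against genes of like length). Against control vOLCs 5 were lower (9.77% of all genes) and 0 higher (18.0%), with a median of −0.59. In control vOLCs against control dOLCs 5 were higher (10.8%) and 0 lower (12.1%). Xylt1, whose enzyme starts the chain on the core protein, stood at 502, 1018 and 613 CPM and was picked after its values were seen. Xylt2, its relative, stood at 64.8, 101 and 49.9 CPM (170, 40 and 60 UMIs), and Chst11, a chondroitin 4-O-sulfotransferase, at 146, 180 and 113. Set against genes of like length, 3 were lower against control vOLCs and 4 higher in control vOLCs against control dOLCs, where 10.2% and 9.18% of all genes were.

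The lecticans, tenascins and their partners, a list that includes Bcan, Vcan and Tnr, gave 10 genes with enough counts. Their median was −0.12 against control dOLCs and −0.33 against control vOLCs, with 1 and 3 lower by over 1.5-fold (5.79% and 9.77% of all genes) and 0 higher (5.34% and 18.0%). Set against genes of like length, 2 were lower against control vOLCs (10.2%). The 3 lower before this centring were Tnr, Hapln1 (−0.67) and Ncan (−0.81), the gene of the lectican neurocan, and Ncan was looked up after its value was seen. The gene lower against control dOLCs was Hapln2, a link protein of nodes of Ranvier made by mature oligodendrocytes, at 145, 53.2 and 45.7 CPM. The mature oligodendrocyte genes in OPCs moved the same way (1.59%, 0.769% and 0.713%), and their part in this was not tested. Cntn1, a contactin that binds tenascin-R and PTPRZ1, stood at 1095, 1132 and 873 CPM, a log2 ratio of −0.33 (−0.43 to −0.22) and −0.38 (−0.54 to −0.21) in ectopic OPCs against each control.

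Of 11 PDGF ligand and signaling genes with enough counts, 0 were higher and 1 lower by over 1.5-fold in ectopic OPCs against control dOLCs (background 5.34% and 5.79%), with a median of 0.02, and 2 were lower against genes of like length (6.14% of all genes). The 1 was Pdgfa, the gene of a PDGFRα ligand, with 144, 7 and 34 UMIs (54.8, 17.7 and 28.3 CPM), named after its value was seen. It stood higher in MOL5/6, at 179, 161 and 151 CPM, and the part of mature oligodendrocyte RNA in OPCs (1.59%, 0.769% and 0.713%) in its ratio was not tested. Etv5, a target of receptor signaling, was at 0.29 (−0.06 to 0.63), and the mediators Grb2, Crk and Ptpn11 were at 0.24 (−0.21 to 0.68), 0.06 (−0.41 to 0.51) and −0.53 (−1.10 to 0.005). Spred1 (−0.42, −0.74 to −0.10) and Dusp6 (−0.45, −0.87 to −0.04), which dampen it, were lower, though near 0 against control vOLCs (−0.02 and −0.00). Of 12 relatives and partners of the members, 1 was higher and 0 lower by over 1.5-fold (5.34% and 5.79% of all genes), with a median of −0.06. The 1 was Adgrb3, the receptor of C1ql1, at 42.7, 60.8 and 64.0 CPM. Its log2 ratio, 0.586 (0.15 to 1.02), was just past the limit, and against control vOLCs it was 0.08 (−0.60 to 0.80). C1ql2 came close against control dOLCs, at 0.57 (0.27 to 0.86). Lhfpl2 went the other way from Lhfpl3 there, at −0.50 (−1.02 to −0.01). Against control vOLCs, 2 of the 12 were lower and 0 higher by over 1.5-fold (9.77% and 18.0% of all genes), with a median of −0.34.

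Of 26 other OPC genes with enough counts, 0 were lower by over 1.5-fold in ectopic OPCs than in control dOLCs (5.79% of all genes) and 3 higher (5.34%, or 2 against genes of like length, where 2.99% were), and the median log2 ratio was 0.10. Among those higher were the transcription factor gene Nkx2-2 (0.92, 0.45 to 1.37) and Ostf1 (0.76, 0.56 to 0.96). Against control vOLCs they were at 1.32 and 0.89, the first on 10 UMIs in the control. Matn4 (−0.33), a matrix protein, Ednrb (−0.31), an endothelin receptor, and Megf11 (−0.29) were lower by amounts like those of Tnr, and lower against control vOLCs as well (−0.56, −0.43 and −0.58).

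In MOL5/6, the largest group of mature cells (3777, 561 and 1842), 4 of the 10 members had enough counts, Cspg5, Ptprz1, C1ql1 and Bcan. Cspg5 stood at 75.1, 51.7 and 53.5 CPM, and Ptprz1 at 33.8, 21.9 and 16.6. C1ql1 stood at 52.9, 25.7 and 24.4, and Bcan at 31.9, 13.4 and 15.2. Each was highest in control dOLCs, where in OPCs each had its lowest or second lowest level.

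Against control dOLCs, ectopic MOL5/6 cells had log2 ratios of −0.49 (−0.64 to −0.34) for Cspg5, −1.02 (−1.28 to −0.77) for Ptprz1, −1.12 (−1.32 to −0.91) for C1ql1 and −1.07 (−1.33 to −0.80) for Bcan, where 12.6% of all genes passed 1.5-fold and 11.5% were lower by it. Control vOLCs gave −0.54, −0.63, −1.04 and −1.25, where 3.29% passed it, 2.56% higher and 0.731% lower. These comparisons share the control dOLC library. In ectopic vOLCs Ptprz1 had 176 UMIs in 1842 cells, so it was below 10% of cells there. It passed the limit against each control only through that control, where it is higher, so its low ratios in ectopic vOLCs follow in part from the limit. Bcan passed the count limit only with control dOLCs, where it is highest, so its low ratios follow in part from the limit, and between the ventral libraries it had too few counts (0.19, −0.32 to 0.73). There Cspg5 (0.05), Ptprz1 (−0.40) and C1ql1 (−0.07) had intervals that include 0, and 13.9% of all genes passed 1.5-fold.

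Of the 6 members below the count limit in MOL5/6, Pdgfra stood at 16.0, 10.3 and 5.39 CPM (237, 30 and 57 UMIs) and Vcan at 10.4, 1.71 and 2.37 (154, 5 and 25 UMIs). Pcdh15 stood at 24.3, 23.3 and 17.9 CPM, with a log2 ratio of −0.06 (−0.46 to 0.32) between the controls and −0.44 (−0.70 to −0.18) in ectopic vOLCs against control dOLCs. The library highest in these genes in mature cells, control dOLCs, was also the one whose OPCs held most mature oligodendrocyte RNA (1.59%) and whose mature cells were shallowest (median 3617.5 UMIs against 5279.5 and 5649.5). The part of either in these ratios was not tested. Over MFOLb and all mature cells together, Cspg5, Ptprz1 and C1ql1 were at −0.53, −0.95 and −1.06 in ectopic vOLCs against control dOLCs and at −0.59, −0.51 and −1.09 between the controls. Between the ventral libraries they were at 0.06, −0.44 (−0.75 to −0.12) and 0.03, so that the interval of Ptprz1 excluded 0 there. In the first 2 comparisons, 11.8% (0.869% higher and 10.9% lower) and 3.59% (2.75% higher and 0.842% lower) of all genes passed 1.5-fold, and in the third 13.5% did.

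The quality limits touched OPC-rich barcodes unevenly. Barcodes with 3000 genes or more were removed by the authors, and all removed barcodes with a UMI of 8 or more members were of that kind. They numbered 63, 9 and 69, which is 7.31% (5.66 to 9.25), 7.26% (3.37 to 13.3) and 17.8% (14.1 to 22.0) of all barcodes with 8 or more members. Their mature oligodendrocyte RNA was 3.74%, 2.59% and 3.24% of UMIs, above that of kept OPCs and below the 8.69% to 10.0% of mature cells. A larger share of such barcodes was thus absent from the ectopic OPCs described above than from the controls.

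Across the 27 cluster and library sums of at least 20 cells, the genes whose profile was most like the mean profile of the members, of 6110 ranked, were Arhgap31 (Pearson's r = 0.97), Cntn6 (0.97), Tmem176b (0.97), Serpine2 (0.97) and Dll3 (0.96). The points share libraries and cells of like kind, so r is a description. The members themselves ranged from 0.88 for Pdgfra, ranked 343, to 0.97 for C1ql1, ranked 4. Serpine2, which encodes a secreted protease inhibitor, stood at 2389, 2810 and 2520 CPM in OPCs and 46.1, 22.3 and 26.1 in mature cells, like C1ql1 highest among mature cells in control dOLCs.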

How the data were processed

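Adult cortical OLCs were profiled by droplet single-cell RNA sequencing in 3 libraries, 1 per group. The 4 P0 samples were not analysed here. The authors deposited raw UMI counts per gene and barcode, and an annotation that gives each cell its library, its cluster and the percent of mitochondrial counts, computed by the authors. Per the labels, reads were processed with Cell Ranger 2.1.1 on mm10, and clusters came from Seurat. The authors' limits on genes (200 to 3000) and mitochondrial counts (15%) kept 9291 of 10081 barcodes (5804, 925 and 2562), with 23078181, 4846391 and 14293675 UMIs. Totals of the count table equalled the annotation's in 7651 of these cells.

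UMIs were summed by cluster and library and scaled to 1000000 (CPM). Ratios carry conditional exact binomial, shares Clopper-Pearson and levels Poisson intervals, all at 95% and for counting error only. UMIs of 1 library hold no spread between mice, and no test between libraries was run. A count of 0 was bounded by 3 counts. Doublets were not called. Ratios needed 50 UMIs and a UMI in 10% of cells. Promoters were from RefSeq (GRCm38.p6) and transcript lengths, in 20 bins, from GENCODE. The text names all 10 members, list genes with up to 3 highest and 3 lowest ratios of ectopic to control dorsal OPCs if of like sign against control vOLCs, and the 5 most like genes, except 1 list gene that is not reported here. The members and lists were chosen with earlier results of these data known. Alternatives were TMM (edgeR 4.0.16) and DESeq2 1.42.0 size factors, means over cells, thinning, other limits and folds, and centring on length. Steps were tested on simulated data (Python 3.11.15, scipy 1.17.1).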

Additional observations from a re-analysis of the deposited data

Results flagged for a closer look

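Some members stood on opposite sides of 0 in OPCs and in MOL5/6 cells under the same contrast, and these differences between cell types were not tested. Against control dOLCs, the log2 ratio of ectopic vOLCs was 0.15 in OPCs and −0.49 in MOL5/6 for Cspg5, and 0.21 and −1.12 for C1ql1. In control vOLCs against control dOLCs it was 0.36 and −0.54 for Cspg5, 0.29 and −0.63 for Ptprz1, 0.33 and −1.04 for C1ql1, and 0.28 and −1.25 for Bcan, which in MOL5/6 had enough counts only through control dOLCs, where it is highest. Both contrasts share the control dOLC library.

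Of the barcodes that the quality limits removed, 24.0% in ectopic vOLCs had a UMI of 8 or more members, against 16.2% in control dOLCs and 7.89% in control vOLCs. These barcodes lie outside every comparison above.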

How the results depend on the processing

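Of 174 alternative values for medians and counts of members, 153 stayed close to the reported value and 21 moved. Among those that stayed close, the OPC median against control dOLCs, changed sign near 0, from −0.03 to 0.02 when centred on length. So did the median against control vOLCs in MOL5/6, from −0.07 to as high as 0.15 (cells thinned), and over all oligodendrocytes, from 0.03 to −0.06 (means over cells) and −0.02 (centred on length). In OPCs, thinning left 1 member past 1.5-fold for ectopic vOLCs against control vOLCs (2 reported, with 27.8% of all genes past it before thinning). Centring on length left 0, where 10.2% of all genes were lower by that much, with a median of −0.10. Adding cycling OPCs gave 1 between the controls (22.9% of all genes without them). At a fold of 1.25, 1 member passed against control dOLCs (34.2% of all genes), 5 against control vOLCs (54.5%) and 5 between the controls (49.9%), and at a fold of 2, 0 passed against control vOLCs (7.13%). Without the limit on low counts, 7, 3 and 8 members passed 1.5-fold in MOL5/6 (38.5%, 42.4% and 35.7% of all genes) and likewise 7, 3 and 8 over all oligodendrocytes (40.6%, 39.9% and 35.5%), where the median against control vOLCs was −0.36, since more low members entered. Centring on length moved the median against control dOLCs to −0.80 in MOL5/6 and −0.70 over all oligodendrocytes. Both medians include Bcan, which the count limit admits through control dOLCs, as it does Ptprz1 in MOL5/6. At a fold of 1.25, 1 member passed against control vOLCs in MOL5/6 (35.9%) and 1 over all oligodendrocytes (35.1%), and there at a fold of 2, 1 passed in each other contrast (1.72% and 1.26%). Single ratios moved by more than their interval in 28 of 300 alternatives in OPCs and 6 of 88 in MOL5/6, with 0 reversed among those past the fold. Over all oligodendrocytes 8 of 88 moved. Shares of OPCs with a UMI moved in 59 of 60, as they depend on depth. Leaving out mature cells with 3 or more members moved 16 of 30 mature percentages, such as Pdgfra in ectopic vOLCs from 0.395% to 0.287%, and took Cspg4 in control vOLCs from 0.573% to 0.360%, within its interval. Ventral control OPCs numbered 121, which widens their intervals. No paired analysis was possible because each group has 1 library and no test was run.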
